A study of Mus musculus with 6 samples.

Results

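The strongest sites of open chromatin without a gene name were examined. The deposited table names a peak by a gene close to it, but the annotation behind the names is not given in the sources used here, and some unnamed peaks lie on genes, as described below. The table held 123510 MACS peaks, of which 61137 were autosomal and unnamed. Of these, 894 had a mean of at least 8.5 over the WT libraries on the normalized log2 scale. They were chosen by their WT values, so their strength in WT is a description and not a result. A further 3 unnamed peaks of this strength lay on the sex chromosomes and were left out. The comparison set was the 6316 autosomal peaks that carry a gene name and reach the same mean, weighted so that their WT means were distributed like those of the 894 peaks in steps of 0.25 log2 (named peaks of equal strength).

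Open chromatin was mapped by ATAC-seq, which uses a transposase to insert adaptors into DNA not wrapped tightly around nucleosomes, on nuclei of whole crypts of the small intestine. The WT group held 3 libraries of wild type mice, and the KO group held 3 libraries of mice with a Vil-Cre mediated KO of Smarcad1, a chromatin remodeler. All mice were labelled C57BL/6, and ages were not given in the labels. The Villin promoter drives Cre in the intestinal epithelium, so other cells in a crypt preparation keep the gene. Each library was labelled as made from 50000 cells and sequenced as paired 50 bp reads. Reads in peaks, recovered from the spacing of the values, ranged from 6180717 to 16301164 in WT and from 4339306 to 7721797 in KO. Nothing in the labels says that libraries are more than separate samples of a group, so p-values measure the spread between these samples.

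As background, strong ATAC-seq peaks fall at promoters and at enhancers. Promoters of many genes sit in CpG islands, stretches rich in G+C where CpG has not been lost. Enhancers can lie far from the gene they act on, carry fewer CpG and hold binding sites of factors that define the tissue. In the intestinal epithelium such factors include CDX, HNF4, HNF1 and GATA proteins, beside the widely expressed AP-1 and KLF families. CTCF, by contrast, binds at the borders of chromatin loops.

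The central 300 bases of 5 of the peaks are shown first, read from the RefSeq copy of GRCm38.p6 on the forward strand. The first 2 are among the 10 strongest peaks and are rich in CpG, which is in capitals. The peak at chr11:109011751-109012050 was the strongest of the unnamed peaks chosen, and its central bases hold 26 CpG. The peak at chr16:90143626-90143925 overlaps the start of Tiam1, an exchange factor of the Rac GTPase, and its central bases hold 27 CpG.
chr11:109011751-109012050: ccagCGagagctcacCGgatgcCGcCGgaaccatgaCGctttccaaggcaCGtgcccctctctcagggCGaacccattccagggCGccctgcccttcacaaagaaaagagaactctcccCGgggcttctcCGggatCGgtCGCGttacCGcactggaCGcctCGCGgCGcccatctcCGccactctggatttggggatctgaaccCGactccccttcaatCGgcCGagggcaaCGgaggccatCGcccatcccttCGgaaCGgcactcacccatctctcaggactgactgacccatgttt
chr16:90143626-90143925: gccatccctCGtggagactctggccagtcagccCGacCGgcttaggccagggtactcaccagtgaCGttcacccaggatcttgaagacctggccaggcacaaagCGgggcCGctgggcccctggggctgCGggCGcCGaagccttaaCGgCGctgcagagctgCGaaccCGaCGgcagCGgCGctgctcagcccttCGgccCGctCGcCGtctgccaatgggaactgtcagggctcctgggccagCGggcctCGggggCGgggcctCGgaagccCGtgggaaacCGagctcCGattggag
In the other 3, capitals mark matches to the motifs searched. The peak at chr15:61905301-61905600, the nearest protein-coding start to which is that of Myc, holds 1 CDX match. The peak at chr16:86816851-86817150, in a gene-poor region whose nearest protein-coding start is N6amt1, holds matches to HNF1, HNF4 and CDX side by side and 2 KLF matches near its end. The 2 HNF1 matches there overlap on opposite strands, and the 2 KLF matches overlap as well. The peak at chr17:87566776-87567075, upstream of the epithelial adhesion gene Epcam, holds a KLF and an HNF4 match.
chr15:61905301-61905600: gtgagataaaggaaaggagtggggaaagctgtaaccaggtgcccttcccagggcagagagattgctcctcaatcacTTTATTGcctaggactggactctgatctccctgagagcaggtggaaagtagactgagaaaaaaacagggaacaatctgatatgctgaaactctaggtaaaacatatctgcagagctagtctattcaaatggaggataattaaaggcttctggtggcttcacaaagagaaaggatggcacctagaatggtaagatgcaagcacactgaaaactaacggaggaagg
chr16:86816851-86817150: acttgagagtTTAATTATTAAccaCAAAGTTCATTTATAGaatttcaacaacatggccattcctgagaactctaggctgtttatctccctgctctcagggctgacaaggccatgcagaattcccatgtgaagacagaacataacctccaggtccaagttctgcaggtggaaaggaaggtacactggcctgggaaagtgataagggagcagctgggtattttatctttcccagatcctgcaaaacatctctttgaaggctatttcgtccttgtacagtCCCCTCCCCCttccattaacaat
chr17:87566776-87567075: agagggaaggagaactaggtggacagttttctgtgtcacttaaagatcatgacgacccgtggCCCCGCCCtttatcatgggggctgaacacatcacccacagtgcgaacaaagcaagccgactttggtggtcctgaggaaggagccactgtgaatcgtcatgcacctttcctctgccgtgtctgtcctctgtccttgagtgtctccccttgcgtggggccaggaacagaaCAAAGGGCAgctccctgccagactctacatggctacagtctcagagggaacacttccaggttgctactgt

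The label that these peaks lie far from genes was checked against the GENCODE vM21 annotation of GRCm38. It held for 538 of the 894 peaks (60.2%), which lay over 5 kb from any annotated gene. The other 356 (39.8%) lay within 5 kb of one, and 256 overlapped one. Most of these genes are not protein-coding. The nearest gene within 5 kb was a lincRNA for 142 peaks and a processed pseudogene for 46, and 80 peaks overlapped a protein-coding gene. By place, 166 peaks touched an exon, 90 lay in an intron and 638 were intergenic. A gene start of any type lay within 1 kb of 132 peaks (14.8%), and a protein-coding start within 1 kb of 43. Among named peaks of equal strength, 68.8% lay within 1 kb of a gene start. The gene may even give its name to another peak: the unnamed peak at chr9:19621351-19622700 lies over the start of Zfp317, and its nearest named peak, 29.6 kb away, carries that name. The peaks are therefore called strong unnamed peaks here.

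Distance to the nearest named peak follows in part from the choice of peaks without a name, and is given as a description. The median strong unnamed peak lay 27.9 kb from the nearest named peak, edge to edge, against 7.2 kb between a named peak of equal strength and the next named one. The nearest strong named peak lay at a median of 81.9 kb, against 48.3 kb. Peaks of any kind were as close to both sets, at a median of 6.0 kb and 6.45 kb. A named peak lay within 5 kb of 40 strong unnamed peaks, and 51 had none within 200 kb. The nearest protein-coding gene start lay at a median of 34.8 kb, and 197 peaks (22.0%) were over 100 kb from any. These distances depend on which peaks the table holds. Of 20807 autosomal protein-coding gene starts, 8160 (39.2%) had no peak in it within 1 kb, among them those of Actb, Gapdh, Epcam, Vil1, Myc, Klf4 and Hes1, which were not analysed here, so a distance to a named peak can be too long.

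**Figure D1:**
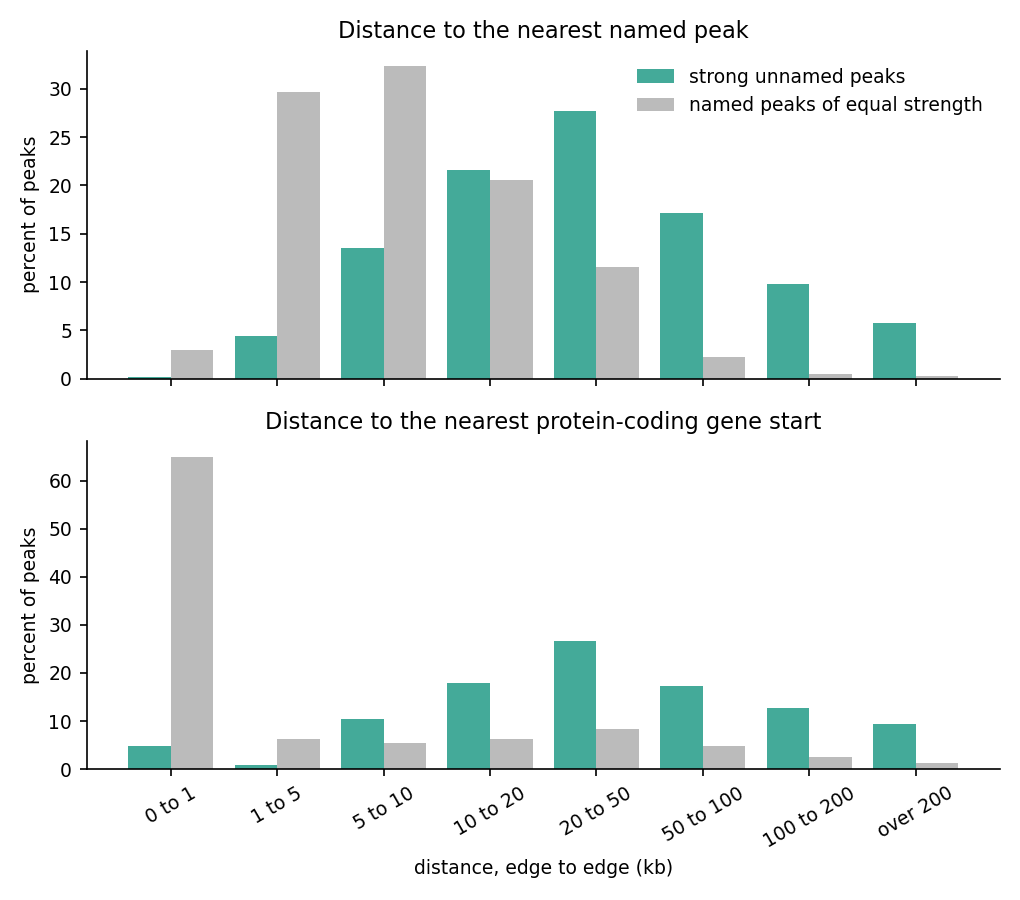
Percent of strong unnamed peaks (green) and of named peaks of equal strength (grey) by distance in kb, edge to edge, to the nearest named peak (top) and to the nearest protein-coding gene start (bottom). Of the named peaks 65.0% have a protein-coding start within 1 kb, and of the unnamed ones 4.81%.

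The peaks farthest from a named peak stood in gene deserts or beside genes without a peak in the table. The farthest, at chr1:113489101-113491500, was 1623 kb from the nearest named peak and 1624 kb from the start of Dsel. Its values were 9.18, 8.54 and 9.49 in WT1 to WT3 and 8.65, 8.10 and 9.80 in KO1 to KO3. The groups overlapped, with KO3 the highest library and KO2 the lowest. Next came a pair on chromosome 15 whose nearest protein-coding start was that of Myc, which drives growth of crypt progenitors. The first, at chr15:61789501-61791000, lay 964 kb from a named peak and 194 kb from the Myc start. The second, at chr15:61904851-61906050, lay 79.3 kb from that start and held values of 8.62, 8.06 and 9.24 in WT and of 8.95, 8.15 and 9.37 in KO. It was lowest in the libraries numbered 2 and highest in those numbered 3, and the groups overlapped. The other 2 were chr5:46577251-46579500, 719 kb from a named peak and nearest to the start of Lcorl, and the peak near N6amt1 shown above. The latter, at chr16:86815951-86818050, touched an exon of the lincRNA Gm32624 and had a WT mean of 9.09.

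Strong unnamed peaks were as wide as named ones matched for strength. Strength counts reads over the whole peak, so width is part of the value that was matched. Equal width and a rise of width with strength thus follow in part from the measure. In strata of reads per kb of peak, the width of unnamed peaks over that of named ones was 0.933. Their median width was 2100 bp (range 600 to 4200 bp), and that of named peaks of equal strength was 2100 bp as well. Width rose with strength in both sets, from a median of 1950 bp at WT means of 8.5 to 9.0 in both to 2550 bp and 2700 bp at 10.0 to 10.5. Above 10.5, the 5 strong unnamed peaks had a median width of 2100 bp and the 95 named ones of 3000 bp. Of all 894 peaks, 8 were narrower than 1000 bp.

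In base composition the strong unnamed peaks were unlike promoters. The median G+C content of their central 300 bases was 49.3%, against 59.7% in named peaks of equal strength. CpG stood at a median of 1.33 per 100 bases, against 5.67. The difference was found at gene starts. Named peaks of equal strength within 1 kb of a gene start had 64.7% G+C and 8.0 CpG per 100 bases, and the other named ones had 50.7% and 1.33, close to the unnamed peaks. Among the unnamed peaks themselves, the 43 at a protein-coding start had a median of 6.67 CpG per 100 bases. The 89 at the start of another gene only had 2.33, and the 762 farther from any start had 1.17. The share of the peak marked as repeat was a median of 15.6%, against 10.5% in named peaks of equal strength, and 14 unnamed peaks were over 50% repeat.

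The motif matches followed the same split. Matches were exact, on both strands of the central 300 bases, and a match is not evidence of binding. The letters searched stand beside each name, with N for any base, and CTCF was searched by its core motif. Those of KLF run into one another in C-rich sequence, and those of different motifs may overlap. CDX (TTTATNG) was matched in 17.0% of strong unnamed peaks, 7.81% of named peaks of equal strength and 13.2% of all peaks. HNF4 (CAAAGNNCA) was matched in 14.7%, 7.19% and 11.1%, in the same order. The motif of GATA factors, AGATAAG, was matched in 7.61%, 3.78% and 5.97%, and HNF1 (TTAATNATT) in 2.80%, 1.22% and 1.60%. AP-1 (TGANTCA) was matched in 13.4%, 7.52% and 11.6%, and FOX (TGTTTAC) in 5.26%, 3.00% and 4.42%. Against named peaks of equal strength, promoter motifs went the other way. KLF (CCNCNCCC) was matched in 38.3%, 56.8% and 30.4%, and ETS (CCGGAAGT) in 1.01%, 3.28% and 0.801%, so in both the unnamed peaks lay between the named ones and all peaks. NFY (CCAATCA) was matched in 4.70%, 6.34% and 4.76%. CTCF was rare in both, in 2 unnamed peaks (0.224%) and 0.399% of named ones, beside 1.28% of all peaks.

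Set beside named peaks away from gene starts, the unnamed peaks were higher in some shares and lower in others. CDX was matched in 17.0% against 13.6% and HNF4 in 14.7% against 12.1%. HNF1 was matched in 2.80% against 2.47%, FOX in 5.26% against 4.92% and ETS in 1.01% against 0.896%. GATA was matched in 7.61% against 8.76%, AP-1 in 13.4% against 14.7% and KLF in 38.3% against 42.8%. NFY was matched in 4.70% against 5.20% and CTCF in 0.224% against 0.427%. At least 1 of the CTCF, AP-1, GATA, CDX, HNF4, HNF1 or FOX motifs was matched in 45.5% of the unnamed peaks, in 43.7% of named peaks over 1 kb from a gene start and in 16.0% of those at a gene start. Within the unnamed set, CDX was matched in 2.33% of the 43 peaks at a protein-coding start and in 19.0% of the 762 away from any start, and KLF in 74.4% and 34.9%. Matches were counted without a test, since regions are not replicates.

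**Figure D2:**
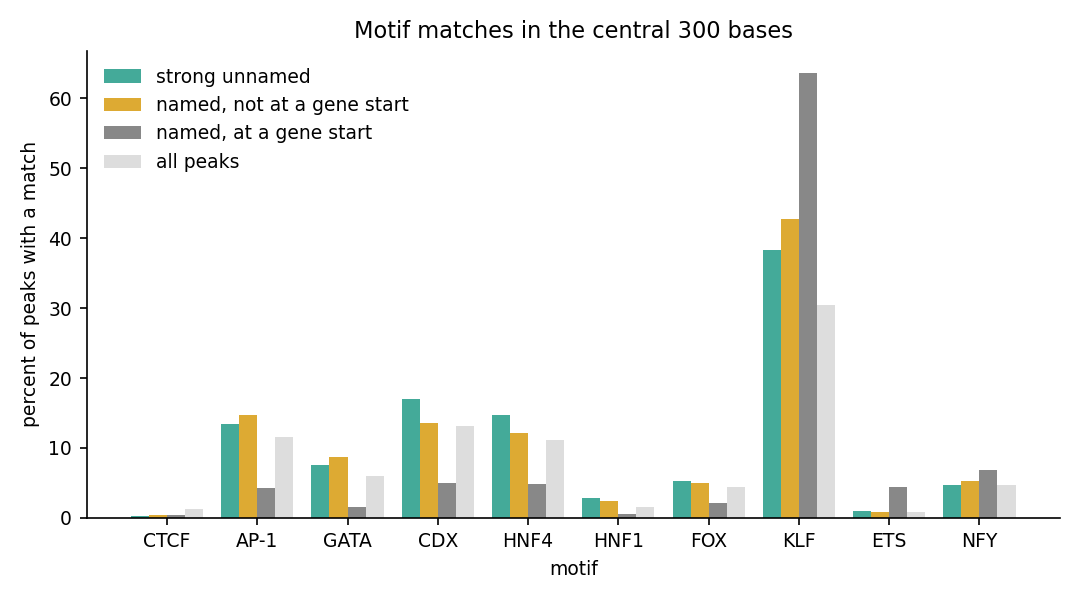
Percent of peaks with an exact match to each motif in the central 300 bases, for strong unnamed peaks (green), named peaks of equal strength away from a gene start (yellow), those at a gene start (dark grey) and all peaks (light grey). Green is above yellow for CDX, HNF4, HNF1, FOX and ETS and below it for GATA, AP-1, KLF, NFY and CTCF. Dark grey stands out for KLF and ETS.

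Along the chromosomes there were 0.363 strong unnamed peaks per Mb of autosome, against 2.56 strong named ones. Density was lowest on chromosome 2 at 0.198 per Mb and highest on chromosome 17 at 0.579 per Mb. Of all strong peaks, 12.4% were unnamed, from 6.39% on the gene-dense chromosome 11 to 19.2% on chromosome 12. When neighbours less than 50 kb apart were joined, 635 peaks stood alone and 259 fell into 114 groups. There were 91 groups of 2, 16 of 3, 6 of 4 and 1 of 5.

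The group of 5 spanned 99.2 kb at chr17:87530101-87629250, between Calm2 and Epcam. Its outermost peak toward Calm2, at chr17:87530101-87532500, touched an exon of the lincRNA AC122818.1. The other 4 had Epcam as their nearest protein-coding start, at 67.8, 31.3, 21.9 and 6.73 kb. The strongest, at chr17:87601501-87604650, held 9.29, 9.57 and 9.65 in WT and 9.65, 9.25 and 10.14 in KO. The groups overlapped, with KO2 the lowest library and KO3 the highest. The KO minus WT differences of the 5 peaks ran from -0.12 to 0.18 log2. The groups of 4 were nearest to starts of Smad7, Gpr12 and Usp12, Pcbp1 and Asprv1, Fos, Irf2bp2, and the Klrb1 family of lectin receptors. Nearest does not mean close, since the peaks by Gpr12 and Usp12 lay 90.7 to 102 kb from their nearest start.

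Gene lists that describe the tissue were compared by how many of their genes have a strong unnamed peak within 100 kb of the start. Of all 20807 autosomal protein-coding genes, 1556 (7.48%) did. Of 27 intestinal epithelial transcription factors, 11 did, namely Ehf, Elf3, Ets2, Hes1, Hnf4a, Isx, Klf4, Klf5, Myc, Prdm1 and Tcf7l2. Of 16 crypt stem and proliferative genes 3 did (Axin2, Lrig1 and Myc), of 17 differentiated epithelial genes 3 did (Epcam, Fabp1 and Krt8), and of 16 non-epithelial genes 3 did (Acta2, Cdh5 and Itgam). Axin2 was counted through the peak at chr11:109011451-109012350, 91.1 kb from its start, which is described below. Near the transcription factors the strongest was the peak at chr16:95681701-95683500, 18.6 kb from the start of Ets2, an ETS family factor. It held 9.76, 9.95 and 10.15 in WT and 9.90, 9.81 and 10.36 in KO, with overlapping groups. Near the differentiated genes it was chr15:102015901-102018750, 11.4 kb from the start of the keratin gene Krt8 and closer still to that of its partner Krt18, with a WT mean of 9.95 and a KO mean of 10.00. Near the non-epithelial genes it was chr7:128031451-128033550, 29.1 kb from the start of the myeloid integrin gene Itgam, with a WT mean of 9.04 and a KO mean of 9.36. Its nearest start was that of Trim72. Across the 27 entries of these lists, KO minus WT ran from -0.20 to 0.33 log2, and no peak passed the test.

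As a check of the tissue, the peak at the start of the intestinal homeobox gene Cdx2 had a WT mean of 9.73, above 99.3% of all peaks, and that at Cdx1 one of 8.13. The peak at Col1a1, a fibroblast gene, had 6.02, above 57.4% of all peaks. No peak of the table lay within 1 kb of the starts of Ptprc, Cd3e, Cd79a and Pecam1, and none near those of Epcam, Vil1 and Krt8 either, so the absence says nothing of these cells.

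The 10 strongest of the unnamed peaks were of mixed kinds. Normalized log2 values are given in the order WT1, WT2, WT3 and KO1, KO2, KO3. The strongest, at chr11:109011451-109012350, was only 900 bp wide and lay 2.67 kb from the processed pseudogene Gm11668 and 91.1 kb from the start of Axin2, a feedback inhibitor of WNT signalling. It held 11.57, 11.92 and 11.81 in WT and 12.06, 11.53 and 12.31 in KO. Its groups overlapped, with KO2 the lowest library and KO3 the highest. Of 5 words of 31 bases taken from it, 1 occurs in 2 places of the assembled chromosomes. Copies outside these chromosomes were not seen, so the count does not show the peak to be unique. To which sequence family the peak belongs was not examined, nor whether reads from other copies were placed in it.

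The second, at chr3:5860051-5861100, was 1050 bp wide and 38.9% repeat, and held 11.52, 11.98 and 11.76 in WT and 11.98, 11.65 and 12.38 in KO. Of 5 words of 31 bases taken from it, 3 occur more than once in the genome, and the commonest in 14373 places. The third, at chr15:75085201-75087300 in the Ly6 gene family, was 57.9% repeat and held 10.88, 11.63 and 10.88 in WT and 11.28, 11.51 and 11.00 in KO. Here the libraries numbered 2 were the highest of their groups, unlike in most of the unnamed peaks. The fourth lay on the pseudogene Mup-ps23 (chr4:61853701-61857600, WT mean 10.53, commonest word in 133 places), and the fifth near Tcp10c (chr17:13307401-13310850, WT mean 10.50, commonest word in 9713 places).

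The next 5 were mostly at annotated starts or transcripts. The sixth lay over the start of 2900026A02Rik (chr5:113218201-113221650, WT mean 10.37), and the seventh on the transcript Gm5112, 7.41 kb from the start of Foxj2 (chr6:122810251-122812500, WT mean 10.36). The eighth, over the start of Tiam1 at chr16:90141751-90145800, was the widest of the 10 at 4050 bp. It held 10.62, 9.53 and 10.86 in WT and 10.46, 9.59 and 11.02 in KO, so both libraries numbered 2 stood below the other 4. The ninth touched an exon of the lincRNA 6720427I07Rik (chr13:48545251-48547050, WT mean 10.29) and the tenth lay in an intron of Gm10432 (chr12:100280701-100284600, WT mean 10.26). KO minus WT of the 10 ran from -0.20 to 0.25 log2, each with a limma standard error of at least 0.37.

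Copies were counted for all of the peaks, in the assembled chromosomes and the mitochondrial genome. Copies in sequence outside these were not seen. At least 1 of 5 words had a further copy in 151 strong unnamed peaks (16.9%) and in 9.36% of named peaks of equal strength. No unnamed peak had all 5 words in more than 1 place, and none shared a word with the mitochondrial genome. Reads of such peaks could be split between copies or lost by the mapping quality limit. Reads of copies that were not seen could also be placed in a peak and raise its value. The part of either in the values was not tested.

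The threshold fell in a dense stretch of values. Just inside it were chr15:67781851-67784100 and chr10:10300051-10301700, both with a WT mean of 8.501. Just outside were chr5:44112901-44114700 and chr11:99458701-99459600, both with a WT mean of 8.499.

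Across libraries the strong unnamed peaks moved together with named ones. Their median was 8.90, 8.60 and 9.31 in WT1 to WT3 and 8.94, 8.45 and 9.46 in KO1 to KO3. WT3 and KO3 were the highest libraries of their groups and WT2 and KO2 the lowest. Per peak, WT3 was the highest of WT in 843 of 894 (94.3%) and KO3 of KO in 876 (98.0%). WT2 was the lowest of WT in 666 (74.5%) and KO2 of KO in 839 (93.8%). In named peaks of equal strength these shares were 95.1%, 98.0%, 81.2% and 94.0%, in the same order. Named peaks of equal strength had nearly the same levels. Unnamed minus named was -0.02, 0.00 and 0.06 log2 in WT and 0.03, -0.03 and 0.06 in KO, with a mean of 0.01 ± 0.045 over WT and of 0.02 ± 0.045 over KO (SD, n = 3). The unnamed peaks took 3.40%, 3.43% and 3.82% of reads in peaks in WT and 3.59%, 3.16% and 4.03% in KO. Each was covered by 45 to 3592 reads in a library.

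**Figure D3:**
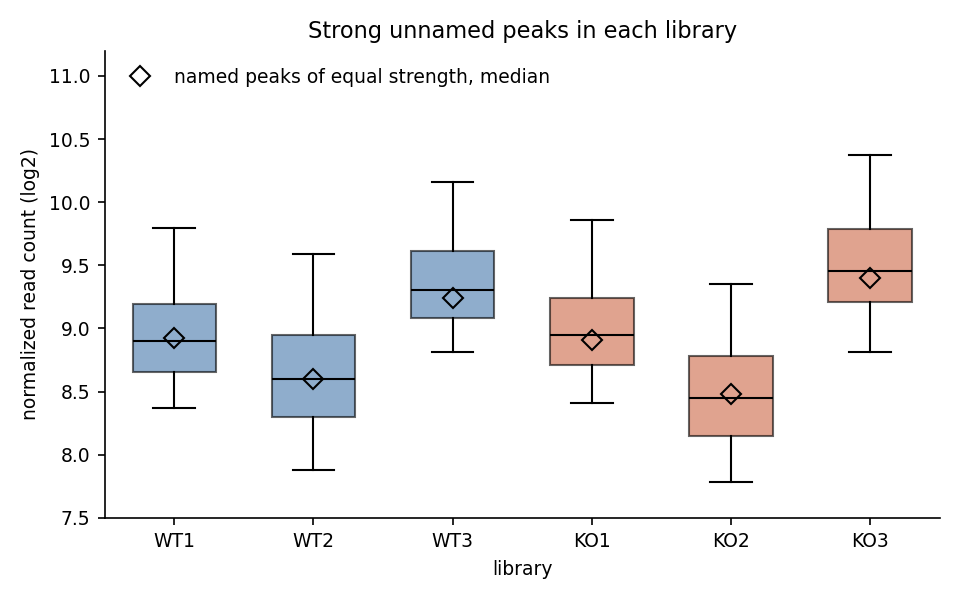
Normalized read count (log2) of the 894 strong unnamed peaks in each library (WT blue, KO red). Boxes give the quartiles and the median and whiskers the 5th and 95th percentiles. Diamonds mark the median of named peaks of equal strength, from which the unnamed median departs by -0.03 to 0.06 log2.

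The spread between libraries was measured over the KO libraries, which did not choose the peaks. The median SD was 0.51 log2 in strong unnamed peaks and 0.47 in named peaks of equal strength, a difference of 0.04. Over the WT libraries it was 0.38 and 0.35. With each library centred on its median, the KO values were 0.41 and 0.37, still a difference of 0.04. After quantile normalization, which makes the whole distribution of values equal between libraries, they were 0.18 and 0.17, a difference of 0.0018. In the deposited values, named peaks of equal strength away from a gene start had a median SD over KO of 0.45. Unnamed peaks were above named ones at WT means of 8.5 to 9.0 (0.51 against 0.46) and 9.0 to 9.5 (0.51 against 0.49). They were below them at 9.5 to 10.0 (0.496 against 0.506), at 10.0 to 10.5 (0.515 against 0.518) and above 10.5 (0.40 against 0.49). The last rests on 5 unnamed peaks. The largest SD over KO was 1.13, at chr14:105731851-105733800, 163 kb from the start of Spry2, a brake on receptor tyrosine kinase signalling. It held 9.56, 8.20 and 10.44 in KO and 9.57, 8.37 and 10.09 in WT, in the same order by number. The next were near Ppp1r3b (1.10), Crim1 (1.03), at the start of Zfp317 (1.02) and near Pkn2 (1.02). The smallest was 0.018, at chr9:120825001-120826950, 102 kb from the start of Ctnnb1, which encodes beta-catenin, with 8.72, 8.72 and 8.75 in KO and 8.27, 8.86 and 8.81 in WT. Near Siah1a it was 0.036, and near Fabp1, the liver fatty acid binding protein gene, 0.054.

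A small set departed from the usual order of libraries. In 43 strong unnamed peaks (4.81%) WT2 was above WT3, and in 10 of these KO2 was above KO3 as well, against 3 of the other 851. Shares were similar in named peaks of equal strength. There WT2 was above WT3 in 3.83%, and both orders were reversed in 0.789%, beside 1.12% of the unnamed peaks. The 43 had a median repeat share of 20.8% against 15.3% in the other 851. A word in more than 1 place was found in 14 of the 43 and in 137 of the 851. The median G+C content was 49.3% in both, and the median CpG per 100 bases was 1.0 in the 43 and 1.33 in the others.

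KO minus WT was small and centred near 0. The median over the 894 peaks was 0.02 log2, with quartiles of -0.07 and 0.10 and a range from -1.02 to 0.57, and the KO mean was above the WT mean in 513 (57.4%), against 50.9% of named peaks of equal strength. In named peaks of equal strength the median was 0.0027, and in those away from a gene start 0.02. The difference of medians between unnamed and named was 0.02. For scale, unnamed minus named in single libraries had an SD of 0.045 within a group, which is not an error of that difference. Because the WT values chose the peaks, these numbers were not tested. They turned on single libraries: without KO2 the median of the unnamed peaks was 0.28, without WT3 0.21, without WT2 -0.15 and without KO3 -0.23. Without WT1 it was 0.0037 and without KO1 0.02. Chosen by the KO mean instead, 948 peaks had a median of 0.05.

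**Figure D4:**
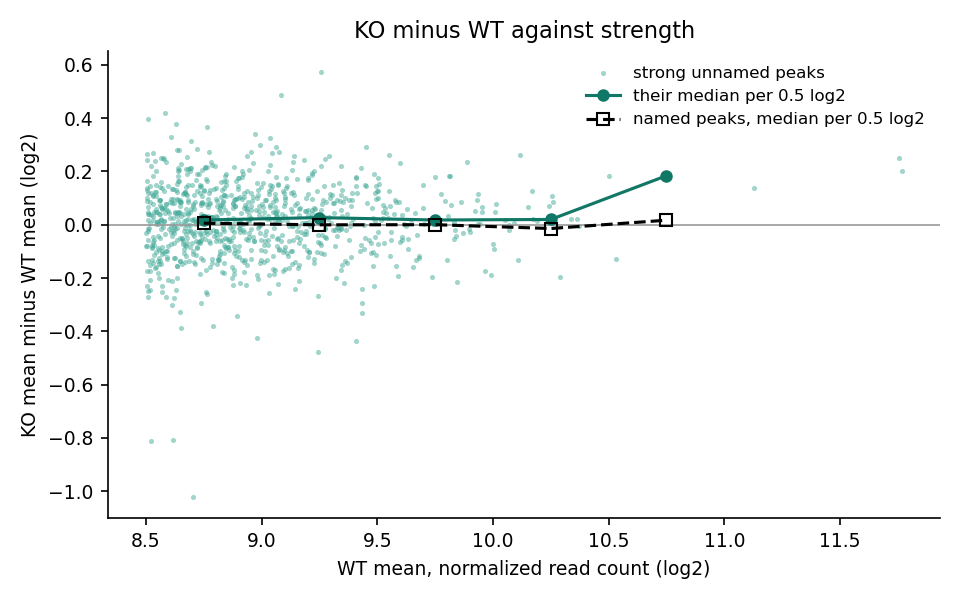
KO mean minus WT mean (log2) against the WT mean (log2) for the 894 strong unnamed peaks (points), with the median per 0.5 log2 of strength for them (filled circles) and for named peaks (open squares). The last pair of symbols pools all WT means above 10.5 and rests on 5 unnamed peaks, and the other medians lie between -0.02 and 0.03.

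By limma with Benjamini-Hochberg adjustment, 0 strong unnamed peaks were called at an adjusted p below 0.05, as were 0 of all 123510 peaks (0%). This holds for limma on the log2 values. The authors' own edgeR test, not repeated here, did report sites of changed accessibility, most of them higher in KO. At an unadjusted p below 0.05, 0 unnamed peaks were higher in KO (all peaks 0.909%) and 2 were lower (all peaks 1.37%). Under limma voom on the recovered reads 0 were called, with 10 at an unadjusted p below 0.05 in either direction (all peaks 2.39%). In 0 of them did every KO library lie above every WT library (all peaks 2.7%), and in 2 every KO library lay below (all peaks 4.1%), namely the Adra1b peak described next and, named after its values were seen, chr17:32098801-32101050 (KO minus WT -0.21, nearest start Hsf2bp). The rule used the WT values, so nothing is read from these counts.

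The lowest p belonged to chr11:43928701-43931100, an intergenic peak 27.5 kb from the start of Adra1b, an adrenergic receptor gene. It held 8.88, 8.25 and 8.98 in WT and 7.75, 7.81 and 7.49 in KO, so the groups did not overlap. KO minus WT was -1.02 ± 0.31 log2 (limma SE, unadjusted p = 0.00547, adjusted p = 1.0). Next among the lower ones was chr17:74079901-74081100, on a lincRNA 32.0 kb from the start of Srd5a2, with 8.55, 8.14 and 9.16 in WT and 8.40, 7.41 and 7.61 in KO. The groups overlapped only through KO1. At chr11:39953401-39955050, 71.8% repeat and 740 kb from the start of Mat2b, KO minus WT was -0.81, with KO1 at 7.03 the lowest library. The remaining 2 lower peaks, near Rbm46 and Atf7ip, differed by -0.48 and -0.44. Of these 5, the Adra1b difference ran from -1.25 to -0.88 with each library left out, and the other 4 kept their sign, the nearest to 0 being -0.20 near Atf7ip without KO2.

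Among the peaks higher in KO the lowest p belonged to chr8:10865251-10867650, on a lincRNA 141 kb from the start of Irs2, an adaptor of insulin signalling. It held 8.97, 9.06 and 9.74 in WT and 9.75, 9.34 and 10.39 in KO. KO2 lay below WT3, so the groups overlapped, and KO minus WT was 0.57 ± 0.38 log2 (limma SE, unadjusted p = 0.156, adjusted p = 1.0). It was 0.29 without KO3 and 0.82 without KO2. The other 4, near B4galnt1, Shisa3, Zfp960 and Irf2bp2, differed by 0.49, 0.40, 0.42 and 0.33, with overlapping groups. Without KO3 these became 0.27, 0.17, 0.10 and 0.10, and without WT2 the Zfp960 difference was -0.024.

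**Figure D5:**
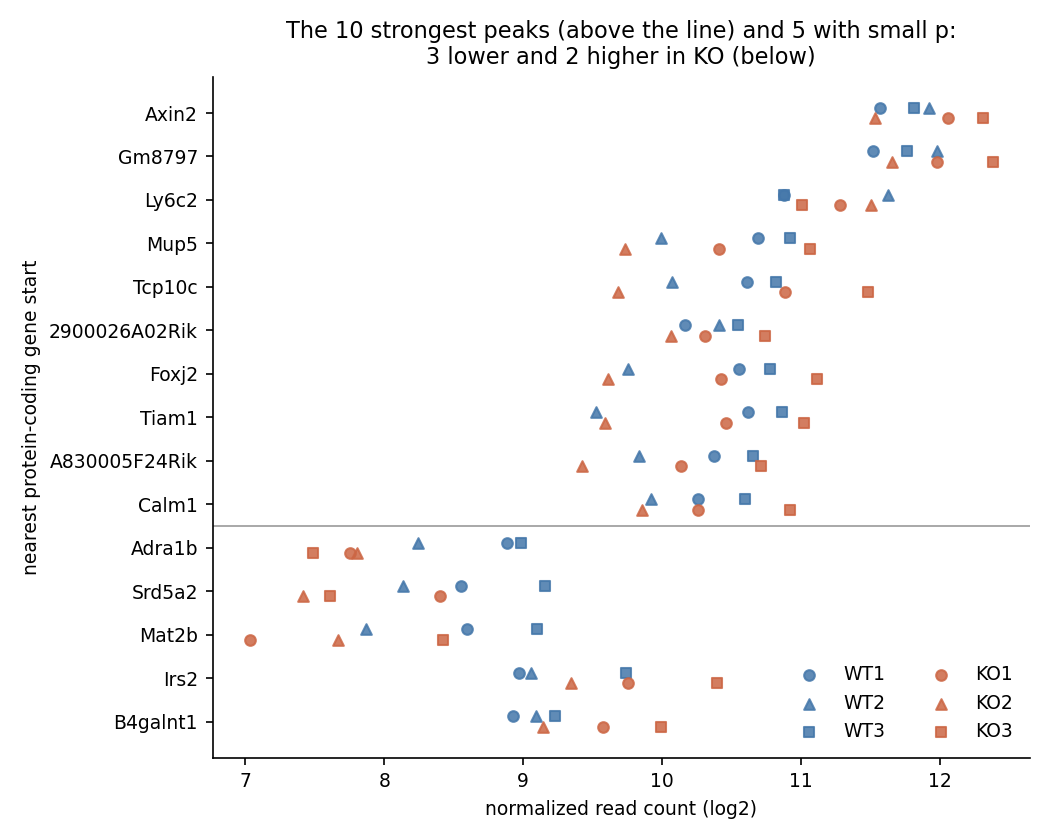
Normalized read count (log2) in each library (WT blue, KO red, shape by replicate number) of the 10 strongest unnamed peaks and of 5 with the lowest unadjusted p (3 lower and 2 higher in KO), each named by the nearest protein-coding gene start. Colours are mixed in every row but that of Adra1b, where all KO values lie below all WT values.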

How the data were processed

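ATAC-seq reads of 3 WT and 3 KO libraries were trimmed by the authors with Trim Galore 0.4.1 and mapped to GRCm38 with Bowtie 2 2.2.5. They were imported into SeqMonk with a mapping quality limit of 20, a fragment limit of 1000 bp and without duplicates. The authors called 1 set of MACS peaks, and which libraries entered is not given in the sources used here. The deposited values are log2 read counts per peak, scaled by the authors to the largest library. A smaller table of the authors' own edgeR result was not used. All columns of per-library values were mapped to samples by title.

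Peaks, lists and tests were chosen with earlier results of these data known. Because the values are on a log2 scale, limma 3.58.1 (R 4.3.3; lmFit, eBayes with trend, two-sided) was fitted without covariates, filter or pseudocount to all 123510 peaks of all 6 libraries, with Benjamini-Hochberg adjustment, in place of the authors' test for counts. Whole reads were recovered from the spacing of values in each library (100% of values), and these cover counting error only. Regions named were the 10 strongest, the 5 farthest from a named peak, the 5 with the largest and 3 with the smallest SD over KO, the 5 with the smallest p in each direction, the largest group, those next to the threshold and the strongest of each gene list. Gene positions are those of GENCODE vM21, sequence and repeat marks those of RefSeq GRCm38.p6.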

Additional observations from a re-analysis of the deposited data

How the results depend on the processing

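No strong unnamed peak was called in any fit run without the replicate number, which covered centring, trimmed mean of M values, quantile normalization, voom, other thresholds and filters and each library left out (range 0 to 0). With the replicate block 4 were called, of 272 over all peaks (0.22%). These were the peaks near Adra1b (adjusted p = 5.3e-09), Srd5a2 (2.9e-05) and Mat2b (3.4e-05), lower in KO, and near Irs2 (0.0052), higher in KO. The WT values chose the peaks and these 4 were named for a small p, so nothing is read from their p-values. Same-numbered libraries correlated at 0.04, 0.42 and 0.41 after subtracting group means, and 5 of 6 libraries correlated best with their own number. This hints at shared structure for numbers 2 and 3, but number 1 shows little of it and the labels name no shared litter or day, so the block was not taken as the design. The median KO minus WT of the unnamed peaks ran from -0.23 to 0.28 with each library left out, and its difference from named peaks from -0.0090 to 0.04. That difference was 0.068 when WT2 alone chose the peaks and was then left out. Without WT2 the peak near Zfp960 turned from 0.42 to -0.024, and over all libraries left out it ran from there to 0.81. Width over that of named peaks, 1.00, became 0.933 in strata of reads per kb of peak. The distance to the nearest named peak, 27.9 kb, was 25.1 kb at a threshold of 9, and in place of it the nearest annotated gene lay at 7.10 kb, the nearest gene start at 13.0 kb, the nearest protein-coding gene at 23.7 kb and its start at 34.8 kb. The unnamed minus named SD over KO, 0.04, was 0.038 with centred libraries, 0.0018 after quantile normalization, 0.060 at a threshold of 8 and 0.011 at 9. Causes were not tested, apart from the distances, which are to different features. The 3 libraries a group and 45 to 3592 reads per peak and library limit what can be detected.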
